A study of Mus musculus with 2 samples.

Results

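Integrins, the receptors that anchor cells to extracellular matrix and to other cells, and laminins, the network-forming proteins of basement membranes, were examined in 2 RNA sequencing libraries of cultured mouse gonadal fat cells. Members were taken by gene symbol, as every integrin α subunit, integrin β subunit, and laminin α, β or γ chain. This gave 37 of the 24091 genes listed, 26 of them integrin subunits (18 α and 8 β) and 11 of them laminin chains. By role, 14 integrin subunits were placed with stromal receptors, 4 with laminin receptors, and 8 with leukocyte and platelet receptors.

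Polyadenylated RNA was sequenced from 1 sham-irradiated and 1 irradiated sample, both of C57BL/6 genotype, and the titles of both also name PBS without saying what it served for. The irradiated mice received pelvic radiation, which the labels give as 7.5 Gy and 5 days without stating whether the dose was daily or total. Gonadal fat was taken 2 months after radiation and dissociated with collagenase, and the floating cells were then cultured for 3 days. The number, sex, and age of the mice are not stated in the sources used here, nor is pooling of animals.

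Integrins work as pairs of an α and a β subunit that span the membrane, bind matrix or counter-receptors outside the cell, and link to actin inside it through talin and kindlin. The β1 subunit pairs with many α subunits in stromal cells, whereas the β2 subunit is restricted to leukocytes. Laminins are trimers of an α, a β, and a γ chain, and in fat a basement membrane that contains laminin surrounds each mature adipocyte as well as the capillaries.

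Levels are given as FPKM, in which fragments are scaled by gene length and by the library total, so that genes are compared per length. Differences are the deposited log2(FPKM + 0.1) value of the irradiated library minus that of the sham-irradiated (sham) library, a scale that understates the differences of genes with low FPKM. Because deposited values carry 2 decimals, a difference can be off by up to 0.01 through rounding. The fragments behind each value were recovered from the whole-fragment steps of genes with few fragments. Totals of 30600000 (sham-irradiated) and 35000000 (irradiated) placed 100% of 3331 and 3286 such genes within 0.12 of a whole fragment. Intervals are exact 95% Clopper-Pearson intervals of the log2 ratio of fragments per library total, without the added 0.1, and they cover counting error only. With 1 library per condition there was no test between conditions and no replicate check, and the intervals compare these libraries rather than the treatments. In bulk RNA, fewer cells of a type and less RNA per cell cannot be told apart.

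The label of primary adipocytes was checked against marker genes first. Adipoq, which encodes the adipocyte hormone adiponectin, had an FPKM of 0.133 in the sham library and 0.232 in the irradiated one, on 5 and 10 fragments. Plin1, the coat protein of the mature lipid droplet, had an FPKM of 0.254 and 0.478 on 26 and 56 fragments, a difference of 0.71 (interval 0.22 to 1.64). Of 12 adipocyte markers, 4 reached an FPKM of 1, with a summed FPKM of 122 and 124, and the fatty acid carrier Fabp4 made up 79.4% and 78.0% of that sum, at 96.9 in both libraries. The largest difference among those 4 was 0.17, for the triglyceride lipase Pnpla2, at an FPKM of 5.11 and 5.76. Lep, the gene of the hormone leptin, had 0 and 2 fragments. In contrast, 11 of 11 fibroblast and progenitor markers reached an FPKM of 1, with a summed FPKM of 3716 and 3019. Their most abundant gene was Col1a1, a chain of type I collagen, at 1937 and 1428, and Pdgfra, a growth factor receptor of adipose progenitors, had 95.6 and 73.9. Thus the defining adipocyte markers Adipoq and Plin1 stayed under an FPKM of 0.5 in each library, and the material is called cultured gonadal fat cells here.

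All 37 members had at least 1 fragment in each library, and 22 of them reached an FPKM of 1 in 1 or both libraries. The 22 comprised 16 integrin subunits and 6 laminin chains. The summed FPKM of the 26 integrin subunits was 649 in the sham library and 749.9 in the irradiated one, while that of the 11 laminin chains was 241 in both. Integrin transcripts were therefore higher as a sum in the irradiated library, and laminin transcripts were level.

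Among the 22 members that reached an FPKM of 1, 3 were higher in the irradiated library by at least 0.5 (1.41-fold), namely Itga3, Itga6, and Itgb2, against 4.31% of the 11253 genes kept by the same filter. A single member, Lama1, was lower by at least 0.5, against 1.44% of genes. None of these 22 members differed by 1 or more, against 1.16% of genes. The members' shares were 13.6% higher and 4.55% lower. The median difference of the 22 members was 0.22, and that of all genes kept was 0.02. Of the 22 members, 17 had a higher and 5 a lower value in the irradiated library, as had 6020 and 4947 of the 11253 genes. The members just under the 0.5 threshold were Lama2, at 0.49, and Itgb7, at 0.48, and Itgb2 lay just above it at 0.52.

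Counting intervals lay above 0 for 14 of the 22 members (63.6%) and below 0 for 4 (18.2%), against 23.8% and 17.4% of all genes kept. An interval narrows as fragments increase, so these shares also follow abundance. The interval counts of the gene lists below follow abundance too, and the same shares of all genes kept apply to them. Of the 11 members whose FPKM was 10 or more in each library, 7 had an interval above 0 and 3 had one below, with differences from -0.11 to 0.52. The share of all genes at that level was not computed, so these counts have no comparison.

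**Figure D1:**
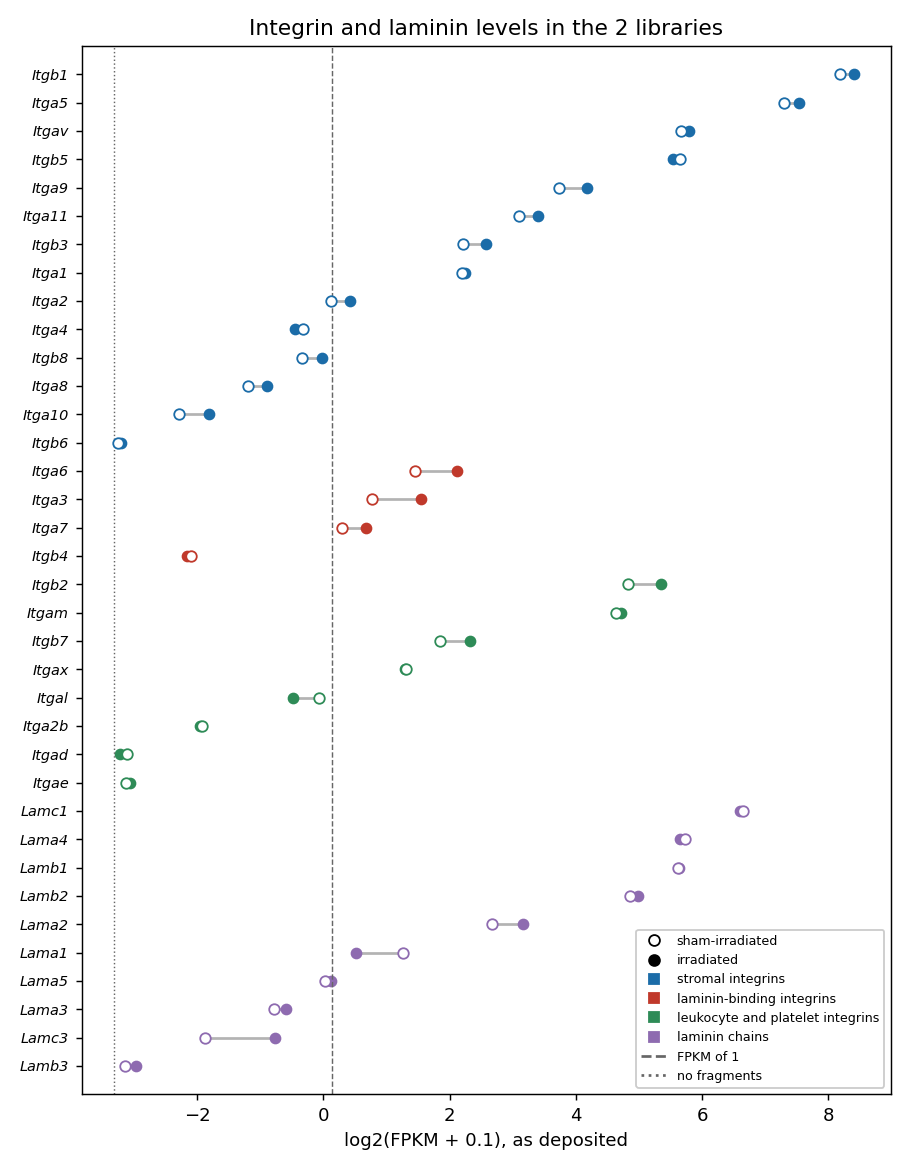
Deposited log2(FPKM + 0.1) values (horizontal axis) of 36 integrin and laminin genes (vertical axis) in the sham-irradiated library (open circles) and the irradiated library (filled circles), 1 library each, coloured by role, with dashed and dotted lines at an FPKM of 1 and at no fragments. Itgb1 was the most abundant member at an FPKM of 292 and 338, and Lama1, at 2.29 and 1.33, was the only member above the dashed line that was lower by at least 0.5.

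To describe the stromal receptors, the shared β1 subunit was examined first. Itgb1, the partner of most matrix-binding α subunits, had an FPKM of 292 in the sham library and 338 in the irradiated one, on 38015 and 50321 recovered fragments. Its difference was 0.21, with a counting interval from 0.19 to 0.23. It made up 77.0% and 77.4% of the summed FPKM of the 8 β subunits, so the place of β1 at the head of the β subunits was alike in both libraries. The summed FPKM of its 12 possible α partners was close to its own, and the ratio of Itgb1 to that sum was 1.21 and 1.19.

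Itga5, the α subunit of the classical fibronectin receptor α5β1, had an FPKM of 157 in the sham library and 185 in the irradiated one. The difference was 0.23 (interval 0.20 to 0.26). Per length, Itga5 was the most abundant of the 18 α subunits, with 58.4% and 58.9% of their summed FPKM. Fn1, which encodes fibronectin and was named after its value was seen, had an FPKM of 515 and 592, a difference of 0.20. Receptor subunits and ligand were thus both slightly higher in the irradiated library, by 0.20 to 0.23.

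Itgav encodes the αv subunit, which pairs with several β subunits to bind vitronectin, fibronectin, and latent TGF-β. It had an FPKM of 50.5 in the sham library and 55.2 in the irradiated one, a difference of 0.13 (interval 0.10 to 0.16). Its β partners did not move as a block. Itgb5, whose αvβ5 pair is a vitronectin receptor, had an FPKM of 50.1 and 46.4, a difference of -0.11 (interval -0.17 to -0.05). Itgb3, which forms the αvβ3 receptor of osteopontin and vitronectin, had an FPKM of 4.53 and 5.84, a difference of 0.36 (interval 0.24 to 0.50). The FPKM ratio of Itgb5 to Itgb3 was 11.1 in the sham library and 7.95 in the irradiated one, with Itgb5 the more abundant per length in both. Itgb8, whose αvβ8 pair releases active TGF-β from its latent form, stayed under an FPKM of 1, at 0.690 and 0.879 (interval 0.01 to 0.70). Itgb6, the epithelial partner in αvβ6, had 1 and 2 fragments, too few for a difference to be detectable. Itga8, a receptor subunit of contractile mesenchymal cells that binds nephronectin, was also under an FPKM of 1, at 0.335 and 0.440, with an interval from -0.09 to 0.88.

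Itga9 encodes the α9 subunit, which binds tenascin-C and osteopontin together with β1. It had an FPKM of 13.2 in the sham library and 17.9 in the irradiated one, on 2844 and 4424 fragments. The difference of 0.44 (interval 0.37 to 0.51) was the largest among the 9 stromal subunits that reached an FPKM of 1. Itga4, the receptor subunit for VCAM1 and fibronectin that stromal and blood cells share, was under an FPKM of 1 at 0.696 and 0.632, with an interval from -0.38 to 0.11.

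The collagen receptors are β1 integrins with the α1, α2, α10, or α11 subunit. Itga11, the receptor subunit for fibrillar collagen on fibroblasts, was the most abundant of them per length, with an FPKM of 8.41 and 10.5 and a difference of 0.31 (interval 0.21 to 0.42). Itga1, which favours the type IV collagen of basement membranes, had an FPKM of 4.46 in the sham library and 4.62 in the irradiated one. Its difference of 0.05 had an interval from -0.06 to 0.16, so no difference was detectable at this depth. Itga2, a receptor subunit for type I collagen, had an FPKM of 0.987 and 1.24 on 126 and 181 fragments, a difference of 0.30 with an interval from -0.01 to 0.67. Itga10, known from cartilage, had 16 and 32 fragments and an interval from -0.10 to 1.77. Itga11 made up 60.2% and 63.4% of the summed FPKM of the 4 collagen receptor subunits, which was 14.0 and 16.5.

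As a group, 9 of the 14 stromal subunits reached an FPKM of 1, with a median difference of 0.23. Of these 9, 8 were higher in the irradiated library and 1, Itgb5, was lower, while 6 counting intervals lay above 0 and 1 below. None of the 9 reached a difference of 0.5. The summed FPKM of all 14 stromal subunits was 583 and 666. The fibroblast and progenitor markers did not share this direction as a list, with a median difference of 0.01 over 11 genes, 3 intervals above 0 and 5 below, and a largest difference of -0.55 for the progenitor gene Pi16 (FPKM of 1.94 and 1.29). Mural and smooth muscle markers had a median difference of 0.24 over 7 of 7 genes, with 5 intervals above 0 and 0 below. Their summed FPKM was 576 and 680, and 94.5% and 94.6% of it came from the contractile actin gene Acta2, at 545 and 643. Cspg4, a pericyte proteoglycan, had the largest difference of that list at 0.70 (FPKM of 0.795 and 1.35). The part of these cells in the stromal integrin values was not tested.

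The ligands of stromal integrins moved in both directions. Of 19 such genes, 17 reached an FPKM of 1, with a median difference of 0.20, 12 intervals above 0 and 5 below. The most abundant was Col1a1, with a difference of -0.44, and the largest difference, 0.71, was shared by Ctgf, a matrix-associated growth regulator that binds integrins (FPKM of 259 and 425), and Spp1, which encodes osteopontin (183 and 300.1). Further ligands were named after their values were seen. Cyr61, another matrix protein gene whose product binds integrins, had an FPKM of 229 and 326, a difference of 0.51. Postn, which encodes the matricellular protein periostin, was lower, with an FPKM of 352 and 240.4 and a difference of -0.55. Of the type I and III collagens, Col1a2 and Col3a1 had differences of -0.43 and -0.33, and Col1a1 and Col3a1 are also in the fibroblast list. The collagen receptor subunit Itga11 was thus higher in the irradiated library, whereas its ligand genes Col1a1, Col1a2, and Col3a1 were lower.

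Next, the subunits that bind laminin were examined. Itga3, the α subunit of α3β1, a receptor for laminins of epithelial and mesothelial basement membranes, had an FPKM of 1.61 in the sham library and 2.81 in the irradiated one, on 257 and 515 fragments. The difference of 0.77 (interval 0.59 to 1.03) was the largest among the 22 members that reached an FPKM of 1. Itga6, which forms laminin receptors with β1 or β4, had an FPKM of 2.63 and 4.25 on 671 and 1240 fragments, a difference of 0.67 (interval 0.55 to 0.83). Itga7, the laminin receptor subunit of muscle cells, had an FPKM of 1.12 and 1.502 on 146 and 223 fragments, a difference of 0.39 (interval 0.11 to 0.73). The 3 laminin-binding α subunits were therefore all higher in the irradiated library, with a median difference of 0.67, and their summed FPKM was 5.36 and 8.56. Itga6 made up 49.1% and 49.6% of that sum. Itgb4, the hemidesmosome subunit that pairs with α6 in epithelia, was near the floor at an FPKM of 0.133 and 0.124 on 32 and 34 fragments, and its interval ran from -0.85 to 0.64.

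These subunits were of low abundance, at 1.09% and 1.495% (Itga6) and 0.665% and 0.989% (Itga3) of the summed FPKM of the α partners of β1. Among all genes whose higher library lay at an FPKM of 1 to 5, 299 of 3715 (8.05%) were higher by at least 0.5, against 2 of the 8 members in that range. Other laminin receptors showed smaller differences. All 6 listed genes reached an FPKM of 1, with a median difference of 0.11, 4 intervals above 0 and 0 below. Sdc4, a heparan sulfate proteoglycan of focal adhesions, was the most abundant at an FPKM of 104 and 111. Bcam, a receptor of the laminin α5 chain, had the largest difference, 0.31, at 2.58 and 3.22.

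Of the markers of cell types that carry laminin-binding integrins, mainly the mesothelial ones differed between the libraries. Of 10 listed mesothelial markers, 9 were among the genes and Muc16 was not. All 9 reached an FPKM of 1 in 1 or both libraries. Msln, Upk3b, Krt19, Krt18, and Nkain4 did so in the irradiated library only. Of the 9, 8 were higher in the irradiated library by at least 0.5, against 4.31% of all genes kept. The median difference of the 9 was 1.16, and their summed FPKM was 35.0 in the sham library and 50.6 in the irradiated one. Msln, which encodes the mesothelial surface protein mesothelin, had an FPKM of 0.520 and 2.71 on 34 and 202 fragments, a difference of 2.18. Wt1, the most abundant of the list and a transcription factor of mesothelial and stromal cells, was slightly lower, at 20.4 and 18.7 (-0.13). Of 7 epithelial markers, 0 reached an FPKM of 1, the summed FPKM was 0.380 and 0.655, and Krt7 was the most abundant. Epcam, the defining adhesion molecule of epithelia, had 4 fragments in each library, and Krt5 and Esrp1 had 0. Endothelial markers had a median difference of 0.17 over 9 of 9 genes, 4 intervals above 0 and 0 below, and a summed FPKM of 50.3 and 55.2. Among them, the junction genes Cdh5, the most abundant, and Pecam1 had an FPKM of 16.5 and 16.2, and of 10.2 and 11.5, respectively. Emcn, a sialomucin of the endothelial surface, had the largest difference of that list at 0.33 (3.29 and 4.16). The part of mesothelial and endothelial cells in the values of Itga3, Itga6, and Itga7 was not tested.

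**Figure D2:**
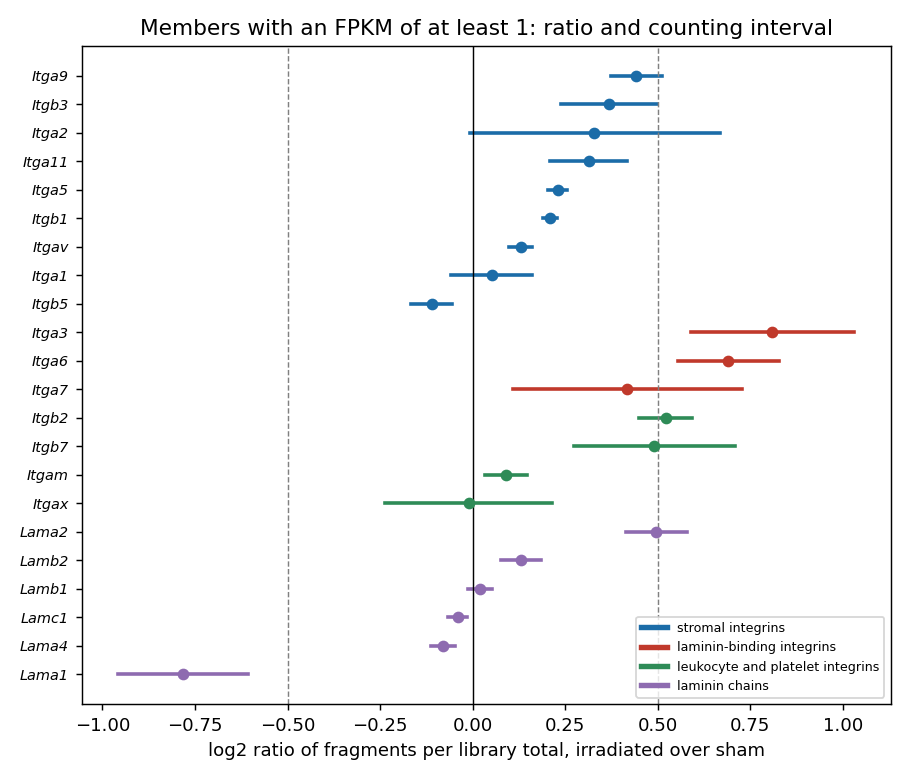
Log2 ratio of fragments per library total, irradiated over sham-irradiated (horizontal axis), for the 22 members with an FPKM of at least 1 (vertical axis), with points for the ratio, bars for the exact 95% Clopper-Pearson interval (counting error only, 1 library per condition) and dashed lines at -0.5 and 0.5. The intervals of Itga3 (0.59 to 1.03) and Itga6 (0.55 to 0.83) lie to the right of 0.5, and that of Lama1 (-0.96 to -0.61) lies to the left of -0.5.

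The leukocyte integrins were then assessed. Itgb2 encodes the β2 subunit (CD18), which the 4 α subunits αL, αM, αX, and αD need to reach the surface. It had an FPKM of 28.3 in the sham library and 40.7 in the irradiated one, on 2548 and 4186 fragments. The difference was 0.52, with an interval from 0.45 to 0.59. Its main α partner differed less. Itgam, the αM subunit (CD11b) of the complement receptor of macrophages and neutrophils, had an FPKM of 24.7 and 26.3, a difference of 0.09 (interval 0.03 to 0.15). Itgax, the αX subunit (CD11c) of macrophages and dendritic cells, had 2.36 and 2.35, a difference of -0.01 with an interval from -0.24 to 0.21.

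Itgal, the αL subunit (CD11a) of the ICAM receptor of lymphocytes, was under an FPKM of 1 and lower in the irradiated library, at 0.853 and 0.612 on 139 and 114 fragments. Its difference was -0.42, with an interval from -0.85 to -0.11. Itgad, the αD subunit (CD11d), had 2 and 1 fragments. Itgam accordingly made up 88.4% and 89.9% of the summed FPKM of the α partners of β2. The FPKM ratio of Itgb2 to that sum was 1.02 in the sham library and 1.39 in the irradiated one, so Itgb2 was higher relative to its α partners as well as in itself.

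Itgb7, whose β7 subunit pairs with α4 or αE on gut-homing lymphocytes and is also carried by mast cells, had an FPKM of 3.48 in the sham library and 4.89 in the irradiated one. On 283 and 455 fragments, the difference was 0.48 (interval 0.27 to 0.71). Its α partners were low, with Itga4 under an FPKM of 1 as given above and Itgae, the αE subunit (CD103), at 2 and 3 fragments. Itga2b, the platelet subunit that binds fibrinogen together with β3, had an FPKM of 0.162 and 0.159 on 34 and 38 fragments, with an interval from -0.74 to 0.68. In total, 4 of the 8 leukocyte and platelet subunits reached an FPKM of 1, with a median difference of 0.285, 3 intervals above 0 and 0 below. Over all 8, without the filter, the median was 0.025, and the interval of Itgal lay below 0. The summed FPKM of all 8 was 59.9 and 75.0.

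Markers of blood cell types were set beside these values. Of 12 macrophage markers, 11 reached an FPKM of 1, with a median difference of 0.44, 8 intervals above 0 and 1 below, and a summed FPKM of 592 in the sham library and 631 in the irradiated one. The list was not uniform. Its most abundant gene, the lysozyme gene Lyz2, was lower at 443 and 410.0 (-0.11), and the macrophage receptor Adgre1 was level at 15.7 and 15.5. The growth factor receptor Csf1r had an FPKM of 10.6 and 13.8 (0.38), the leukocyte phosphatase Ptprc had 5.33 and 6.49 (0.28), and the largest difference was 0.80, for the complement genes C1qa and C1qc. Over the 11 markers, differences ran from -0.11 to 0.80. The values of Itgb2, Itgam, and Itgax lay within that range, and that of Itgal, -0.42, lay below it. Because the range also holds the median of all genes kept, 0.02, a value inside it does not tie a gene to macrophages. The part of macrophages in the leukocyte integrin values was not tested.

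Apart from platelet markers, the remaining blood cell lists had lower sums in the irradiated library. T and NK cell markers, of which 1 of 10 reached an FPKM of 1, had a summed FPKM of 2.53 and 1.46. Their most abundant gene was Cd3g, with a difference of -0.77, and Cd3e had 18 and 13 fragments. B cell markers, of which 0 of 5 reached an FPKM of 1, had a summed FPKM of 1.44 and 0.533. Cd79a was their most abundant gene, with 29 and 8 fragments. The summed values of both lymphocyte lists and the value of Itgal were thus lower together, and the part of lymphocytes in it was not tested.

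Mast cell markers, of which 4 of 5 reached an FPKM of 1, had a median difference of -0.71 and a summed FPKM of 14.6 and 8.43. The tryptase gene Tpsb2 was the most abundant and had the largest difference, -1. Itgb7 was higher and the mast cell, T and NK, and B cell markers were lower as sums, and the part of these cells in the value of Itgb7 was not tested. Neutrophil markers, of which 2 of 8 reached an FPKM of 1, had a summed FPKM of 5.23 and 4.40, with S100a8 the most abundant in the sham library and Retnlg in the irradiated one, and the defining gene Ly6g at 0 fragments in both libraries. S100a8, a neutrophil calcium-binding protein gene, had the larger difference of those 2, -0.49, on 25 and 20 fragments. Retnlg was higher by 0.36, on 33 and 49 fragments, and the counting interval of each of these genes included 0. Genes of this list under an FPKM of 1 were named after their values were seen. Intervals lay below 0 for Mpo (40 and 16 fragments), Elane (6 and 0), and S100a9 (5 and 0). Csf3r was higher by 0.42, with an interval that included 0. Dendritic cell markers, of which 1 of 6 reached an FPKM of 1, had a summed FPKM of 2.40 and 2.07, with the chemokine receptor gene Ccr7 the most abundant (-0.34) and Cd209a at 0 in both libraries. Platelet markers had a summed FPKM of 211 and 238, of which 91.8% and 94.8% was the chemokine gene Pf4, at 194 and 226. Of these 6 platelet genes, 2 reached an FPKM of 1, the other being the chemokine gene Ppbp (-0.48), and the platelet receptor genes Gp6 and Gp9 had 0 fragments in both libraries.

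Counter-receptors of leukocyte integrins were measured in the same libraries. Of 14 listed genes, 7 reached an FPKM of 1, with a median difference of 0.19, 4 intervals above 0 and 0 below. The complement component gene C3, whose cleaved product is a ligand of αMβ2, was the most abundant at an FPKM of 139 and 159. F11r, a junctional ligand of αLβ2, had the largest difference, 0.59, at 6.67 and 10.1. Of those named after their values were seen, Icam1, the main ligand of β2 integrins on stromal and endothelial cells, had an FPKM of 8.72 and 12.9, a difference of 0.56 (interval 0.46 to 0.67). Vcam1, the ligand of α4 and α9 integrins, had 53.7 in both libraries. The fibrinogen genes Fga, Fgb, and Fgg had 0 fragments in both libraries.

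For the laminins, the γ1 and β1 chains, which are common to most trimers, were described first. Lamc1, the γ1 chain, was the most abundant laminin chain per length, with an FPKM of 99.6 in the sham library and 96.9 in the irradiated one. Its difference was -0.04 (interval -0.07 to -0.01). Lamb1, the β1 chain, had an FPKM of 48.7 and 49.4, a difference of 0.02 (interval -0.01 to 0.05) that became 0.00 after centring on the median of all genes. Lamb2, the β2 chain of vascular and neuromuscular basement membranes, had an FPKM of 28.9 and 31.7, a difference of 0.13 (interval 0.08 to 0.18). The core chains were therefore nearly level between the libraries. Lamc1 made up 99.1% and 98.7% of the γ chains, and Lamb1 made up 62.7% and 60.9% of the β chains, by summed FPKM.

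The α chain sets where a laminin is found and which receptors it binds, and here the chains diverged. Lama4, the α4 chain of endothelial, adipocyte, and other mesenchymal basement membranes, had an FPKM of 53.0 in the sham library and 50.1 in the irradiated one, a difference of -0.08 (interval -0.11 to -0.05). Lama2, the α2 chain of muscle and peripheral nerve that mesenchymal cells also make, had an FPKM of 6.26 and 8.84 on 1978 and 3194 fragments. Its difference was 0.49 (interval 0.42 to 0.58). Lama1, the α1 chain typical of embryonic and some epithelial basement membranes, had an FPKM of 2.29 and 1.33 on 673 and 448 fragments, a difference of -0.74 (interval -0.96 to -0.61). Lama2 and Lama1 thus differed in opposite directions, and the FPKM ratio of Lama2 to Lama1 was 2.73 in the sham library and 6.63 in the irradiated one. Lama4 remained the main α chain, with 84.2% and 81.0% of the summed FPKM of the 5 α chains, while Lama2 held 9.95% and 14.3% and Lama1 held 3.65% and 2.16%.

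The less abundant laminin chains stayed under an FPKM of 1. Lama5, the α5 chain of mature vascular and epithelial basement membranes, had an FPKM of 0.914 and 0.987 (interval -0.11 to 0.33). Lama3 and Lamb3, chains typical of epithelial laminin, had 154 and 205, and 2 and 5 fragments, respectively, and each interval included 0. Lamc3, the γ3 chain, was the exception, with an FPKM of 0.172 in the sham library and 0.490 in the irradiated one. On 31 and 102 fragments, its difference was 1.12, and its interval from 0.93 to 2.15 lay above 0. Among the 15 members under an FPKM of 1, Lamc3 alone was higher by at least 0.5. Intervals lay above 0 for Lamc3 and Itgb8 and below 0 for Itgal. The matching shares of all genes under an FPKM of 1 were not computed, so these members are named without a comparison.

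**Figure D3:**
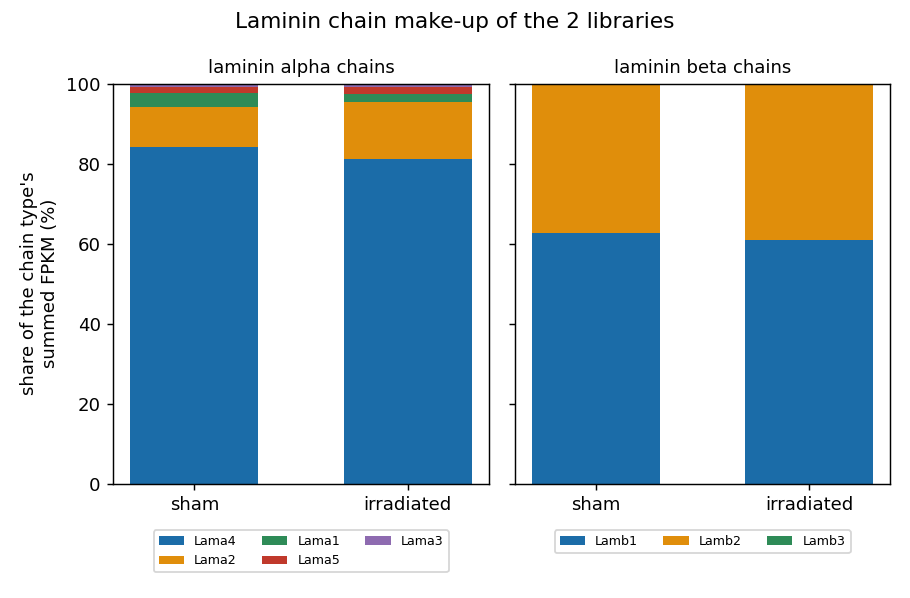
Share of each laminin gene in the summed FPKM of its chain type (vertical axis, percent) in the sham and irradiated libraries (1 each), in separate panels for the α and β chains. Lama4 and Lamb1 held the largest shares in both libraries, and the share of Lama2 was 9.95% in the sham library and 14.3% in the irradiated one.

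Over the 6 laminin chains that reached an FPKM of 1, the median difference was -0.01, with 3 chains higher and 3 lower in the irradiated library. Counting intervals lay above 0 for 2 chains and below 0 for 3. The sign of this median was not stable, since it was 0.10 without the filter and 0.02 with a minimum FPKM of 5. Schwann cell markers, which accompany laminin α2 in nerve, were near the floor, with 0 of 4 genes at an FPKM of 1, and a summed FPKM of 0.398 and 0.434. The defining gene Sox10 had 3 and 9 fragments. Mesothelial markers, given above, were higher in the same library as Lamc3, and their part in its value was not tested.

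Other basement membrane proteins were described beside the laminins. Their summed FPKM was 2452 and 2455, of which Sparc alone made up 75.3% and 68.7%. Of 23 genes, 17 reached an FPKM of 1, with a median difference of 0.26, 13 intervals above 0 and 3 below. By at least 0.5, 5 genes were higher and 1 was lower, against 4.31% and 1.44% of all genes kept. The most abundant was Sparc, a collagen-binding glycoprotein, at an FPKM of 1846 and 1687 (-0.13). The largest difference was that of Npnt, which encodes nephronectin, the ligand of α8β1, at 1.57 and 4.31 on 230 and 721 fragments, a difference of 1.40 (interval 1.24 to 1.67). Its receptor gene Itga8 stayed under an FPKM of 1 in both libraries.

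Several genes of this list were named after their values were seen. Col4a1 and Col4a2, the type IV collagen chains that form the second network of basement membranes, had an FPKM of 148 and 218 (0.56) and of 95.6 and 135 (0.50). Nid1 and Nid2, which encode the nidogens that join laminin γ1 to type IV collagen, had 94.3 and 116 (0.30) and 26.4 and 27.6 (0.06), and the perlecan gene Hspg2 had 90.4 in both libraries. Tinagl1, a matricellular protein gene, and Ntn4, a netrin that binds the laminin γ1 chain, had differences of 1.13 and 0.74. Smoc1, a calcium-binding matrix protein gene, was lower, with a difference of -0.61. Col4a1, Col4a2, and Nid1 were thus higher in the irradiated library, while the laminin core chains Lamc1 and Lamb1 and perlecan were within 0.04 of level. Nid2, at 0.06, and the laminin chain Lamb2, at 0.13, lay between.

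Inside the cell, the genes that connect integrins to actin were mostly slightly higher. Of 32 such genes, 29 reached an FPKM of 1, with a median difference of 0.13. Intervals lay above 0 for 21 and below 0 for 1, against 23.8% and 17.4% of all genes kept. By at least 0.5, 3 were higher and 0 were lower, against 4.31% and 1.44%. The actin cross-linker gene Flna was the most abundant, at an FPKM of 354 and 372. Its interval lay above 0 at a difference of 0.07, since intervals narrow with abundance. Lims2, an adaptor that binds integrin-linked kinase, had the largest difference, 0.77, at 3.98 and 6.86, and the others past 0.5 were the kinase gene Ptk2b (0.73) and the tensin gene Tns1 (0.68), named after their values were seen. The talin genes, also named after their values were seen, differed in opposite directions, with an FPKM of 79.2 and 85.5 for Tln1 (0.11) and of 19.6 and 16.8 for Tln2 (-0.22). Tln2 was the gene of this list with an interval below 0, from -0.27 to -0.17. Fermt1, the kindlin of epithelia, had 0 fragments in both libraries.

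Some members lie next to each other in the genome, and their positions are given as deposited, on build mm10. The 4 genes of the β2-binding α subunits lie on the plus strand of chromosome 7. Itgam (chr7:128062640-128128160) ends 1.41 kb before Itgax (chr7:128129568-128150657), which ends 3.96 kb before Itgad (chr7:128154612-128205503), whereas Itgal (chr7:127296260-127335137) lies 728 kb away. Across this gap of 1.41 kb, the FPKM of Itgam was 10.4 times that of Itgax in the sham library and 11.2 times in the irradiated one. Itga2 and Itga1 lie 26.0 kb apart on chromosome 13, and Itga1 was the more abundant of the pair per length in both libraries. Itgb2 lies apart from its partners, at chr10:77530348-77565674, as do Itga3 (chr11:95044475-95076811), Itga6 (chr2:71786939-71858427), and Lama1 (chr17:67697265-67822645).

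Of the 37 members, 20 overlap the listed span of at least 1 other gene, and whether the counting used strand is not stated in the sources used here. For 10 of the 20, the other genes are microRNA genes only. One of these, Mir684-1, is listed with a span of 122 Mb on chromosome 2 that covers Lamc3, Itga6, and other members, and it had 32 and 29 fragments. Itgal overlaps Zfp553 on the same strand, with 494 and 545 fragments on Zfp553, more than the 139 and 114 on Itgal. Itga1 overlaps Pelo on the same strand, with 562 and 656 fragments on Pelo. On the opposite strand, Itgb4 overlaps Galk1 (1363 and 1396 fragments), Itgae overlaps Gsg2 (389 and 424), and Lamb3 overlaps Hsd11b1 (503 and 772) and G0s2 (45 and 73). Itgad overlaps Cox6a2, which had 26 and 13 fragments against 2 and 1 on Itgad. The values of these members are uncertain to that extent.

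Promoter sequences of RefSeq (assembly GRCm38.p6) were found for 23 members, as 26 windows of the 250 bases before a start. Both strands were searched for GAGGAA, the core bound by the myeloid factor PU.1, for TGANTCA, bound by AP-1, and for GGGCGG, bound by Sp1. GAGGAA was in 13 of the 26 windows, against 23.3% of all 32851 windows of this length. TGANTCA was in 1 of 26, against 6.75%, and GGGCGG was in 9 of 26, against 32.7%. The windows of the neighbours Itgam and Itgax are shown because their levels differed about 10-fold per length at 1.41 kb of distance, and that of Itgb1 because it was the most abundant member. They lie at chr7:128062390-128062639, chr7:128129300-128129549, and chr8:128685404-128685653, each on the plus strand and upstream of the deposited gene span. Capitals mark matches to the motifs on either strand, and no matches overlap within these windows. Itgam holds GAGGAA at 2 places and GGGCGG at 1, Itgax holds TGANTCA at 1, and Itgb1 holds GAGGAA at 1 and GGGCGG at 1. A match describes the letters and not a bound site.
Itgam: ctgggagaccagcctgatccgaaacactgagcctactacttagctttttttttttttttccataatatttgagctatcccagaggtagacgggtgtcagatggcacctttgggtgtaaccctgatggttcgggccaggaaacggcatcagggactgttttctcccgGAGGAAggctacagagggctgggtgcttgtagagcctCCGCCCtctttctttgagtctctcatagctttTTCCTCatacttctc
Itgax: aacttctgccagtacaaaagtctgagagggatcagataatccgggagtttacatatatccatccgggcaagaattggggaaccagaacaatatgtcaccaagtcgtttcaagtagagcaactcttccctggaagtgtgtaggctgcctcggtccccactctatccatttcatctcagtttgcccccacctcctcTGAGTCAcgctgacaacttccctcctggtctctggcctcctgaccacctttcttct
Itgb1: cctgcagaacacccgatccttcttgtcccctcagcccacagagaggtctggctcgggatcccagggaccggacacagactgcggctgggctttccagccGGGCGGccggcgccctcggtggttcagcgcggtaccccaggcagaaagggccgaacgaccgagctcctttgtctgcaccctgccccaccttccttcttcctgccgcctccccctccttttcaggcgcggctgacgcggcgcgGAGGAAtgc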

How the data were processed

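RNA sequencing values of 1 sham-irradiated and 1 irradiated library were used, each assigned to its condition by its treatment label. The authors deposited log2 values of FPKM with 0.1 added, rounded to 2 decimals. The submitters' processing notes name build mm10. The labels describe a stranded library preparation, and the aligner and counting tool are not named in the sources used here. FPKM was recovered by undoing the logarithm, fragments from FPKM, gene length, and library total, and intervals from the fragments. Fragments of abundant genes are approximate because of rounding. The procedure was tested on simulated data, and no values from that test are given here. A gene was kept where either library reached an FPKM of 1, and no count model was used.

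Every integrin and laminin gene entered the counts, and 1 of them is not reported here individually. From each other list, the most abundant gene, the gene with the largest difference, and set defining markers were named, and other genes are stated as named after their values were seen. Members and lists were chosen with earlier results of these data known. Alternatives were a pseudocount of 1 or none, other filters, centring on the median of all genes, scaling without the 100 most abundant genes, the mean, a threshold of 1, and Itga4 placed with leukocyte subunits. Values were computed with SciPy 1.17.1, pandas 2.3.3, and numpy 2.4.6 under Python 3.11.15, and plots were drawn with matplotlib 3.10.9.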

Additional observations from a re-analysis of the deposited data

How the results depend on the processing

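The number of members higher by at least 0.5 was 3 of 22 and became 4 of 37 without a filter. It became 1 with a minimum FPKM of 5 and 0 with a threshold of 1. The number lower by at least 0.5 was 1 and became 0 with log2(FPKM + 1), 0 with a minimum FPKM of 5, and 0 with a threshold of 1. The minimum FPKM of 5 leaves 14 members, and the threshold of 1 is stricter by construction. With log2(FPKM + 1), 3 of 22 members moved beyond their counting interval, to 0.55 for Itga3, 0.53 for Itga6, and -0.50 for Lama1, while all 22 stayed within it without a pseudocount and without the 100 most abundant genes, and under centring only Itgb1, at 0.19, lay at the lower edge of its interval, just outside it.

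The stromal median ranged from 0.21 to 0.265 and the laminin-binding median from 0.53 to 0.69, with no value at a minimum FPKM of 5, which no laminin-binding member reached. The leukocyte median ranged from 0.025, without a filter, to 0.305. The laminin median ranged from -0.03, after centring, to 0.10, without a filter, and the mean was -0.04. No paired analysis was possible because 1 library stood for each condition, and leaving out a replicate was not possible either. Depth limits the members with few fragments, such as Itgb6, Itgad, Itgae, and Lamb3.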
